A study of Mus musculus with 21 samples.

Results

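The genes described here are 54 mouse genes that build or supply the machinery of DNA replication in S phase. They were taken by gene symbol from the 45706 genes of the deposited table. All 54 were present, and all 54 were among the 15230 genes that passed the filter on low counts and were tested. RNA was sequenced in 21 libraries from cultured mouse mammary fibroblasts, in 7 groups of 3. CAF (line CAF1) came from a mammary carcinoma of MMTV-PyMT mice, whose mammary epithelium expresses a viral oncogene, and NF (line NF1) from normal FVB/n mammary gland. Each is a single line, so a difference between CAF and NF is one between these lines. CAF received an siRNA pool against Hsp90aa1, a pool against Hsp90ab1 or a control siRNA, all with vehicle. NF received the same 3 siRNAs with TGFb1, and control siRNA with vehicle. Hsp90aa1 and Hsp90ab1 encode the inducible and the constitutive form of the cytosolic HSP90 chaperone. All 7 groups were seeded at 60% confluence, transfected with 100 nM siRNA, kept in 10% serum and lysed 48 h after transfection, and TGFb1 was present at 5 ng/mL for the last 43 h.

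Replication starts when the origin recognition complex, with Cdc6 and Cdt1, loads the MCM helicase onto DNA in G1 phase. Cdc45 and the GINS complex then turn it into a moving helicase, and DNA polymerases, the sliding clamp PCNA and its loader copy both strands. Most of these genes are transcribed in late G1 and S phase under E2F transcription factors, so in cultured fibroblasts their mRNA is high in cycling cells and low in resting ones. In bulk RNA, fewer cells in S phase and less mRNA in each such cell cannot be told apart.

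The promoters of the genes were searched for 4 strings that fit the E2F consensus, TTTCCCGC, TTTCGCGC, TTTGCCGC and TTTGGCGC, on both strands, in the RefSeq windows (GRCm38.p6) of 250 bases before to 50 bases after the start of each gene. Windows were at hand for 45 of the 54 genes, all but Gmnn, Mcm4, Gins1, Gins2, Gins4, Prim2, Pole, Rfc2 and Ccne2. A match was found in 17 of 45 genes, or 37.8%, against 704 of all 27025 genes with windows, or 2.60%. CCAAT, the box bound by NF-Y, was found in 62.2% of the 45 genes and in 41.1% of all genes with windows. TTTGAA, the cell cycle homology region of mitotic genes, was found in 15.6% against 20.2%. None of the E2F strings contains CCAAT or TTTGAA, and E2F strings on opposite strands can overlap each other. The stretches below come from the 10 genes with a match that lies wholly before the start. They are shown because the strings are commoner in these genes than in all genes with windows. Each is written 5′ to 3′ on the strand of the gene with up to 15 bases on either side, cut at the start of the gene, and capitals mark the matched letters.
Cdc6, chr11:98907998-98908035, plus strand: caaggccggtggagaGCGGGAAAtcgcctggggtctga
Orc1, chr4:108579412-108579449, plus strand: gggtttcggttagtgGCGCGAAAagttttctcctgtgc
Mcm5, chr8:75109341-75109382, plus strand: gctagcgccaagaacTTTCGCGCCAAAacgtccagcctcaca
Mcm6, chr1:128359730-128359830, minus strand: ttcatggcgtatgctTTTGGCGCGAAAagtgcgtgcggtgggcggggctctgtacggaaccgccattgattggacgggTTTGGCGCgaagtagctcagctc
Mcm7, chr5:138172026-138172063, minus strand: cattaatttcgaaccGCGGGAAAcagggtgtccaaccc
Gins3, chr8:95633503-95633540, plus strand: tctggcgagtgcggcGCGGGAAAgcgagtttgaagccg
Pola1, chrX:93632271-93632308, minus strand: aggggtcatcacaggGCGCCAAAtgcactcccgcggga
Rfc3, chr5:151651209-151651233, minus strand: agtgacgtcgcacgcTTTCGCGCtc
E2f7, chr10:110745226-110745263, plus strand: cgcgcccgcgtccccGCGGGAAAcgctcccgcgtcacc
Uhrf1, chr17:56304113-56304150, plus strand: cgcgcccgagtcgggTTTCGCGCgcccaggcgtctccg

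Mcm5 and Mcm6, subunits of the helicase, each hold a pair of matches that overlap on opposite strands, and Mcm6 holds another match nearer the start, 3 in all. Mcm3, the helicase gene with the largest falls with siHsp90aa1 in both lines, has its 2 matches after the start, at bases 20 to 46, shown from the first match to the last. The matches of the other 6 genes, Cdt1, E2f2, Lig1, Pold1, Pold3 and Pole2, also follow the start.
Mcm3, chr1:20820267-20820293, minus strand: GCGGGAAAacttgggaagtTTTGGCGC

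The total count per library was 35087180 to 70421576. Each siRNA pool lowered its own target, Hsp90aa1 by a log2 fold change of -3.31 ± 0.33 in CAF and -3.01 ± 0.32 in NF and Hsp90ab1 by -3.33 ± 0.22 in CAF and -2.91 ± 0.21 in NF (standard error, SE, throughout). Of the 10 listed fibroblast markers, Lum was near 0 in every group and Thy1 in NF only. In the group means, Col1a1 was at 2475 to 28355 counts-per-million (CPM), Col1a2 at 2604 to 22235 CPM and Col3a1 at 482 to 3511 CPM. Fn1 was at 2616 to 9965 CPM and Vim at 1843 to 3952 CPM. Pdgfra was at 228 to 951 CPM, Pdgfrb at 210 to 405 CPM and Dcn at 16.7 to 397 CPM. Lum was at 0.793 CPM or less, while Thy1 was at 190 to 239 CPM in CAF and at 0.285 CPM or less in NF. Epithelial, endothelial, immune and pericyte marker lists summed to at most 22.2, 14.2, 8.57 and 22.3 CPM in any library. Mitochondrial transcripts took 4.30% of the counts in NF vehicle replicate 1 and 1.67% to 2.81% in the other libraries. The labels do not say that replicates were cultured separately, and the p-values therefore rest on the spread among these libraries, which may be technical.

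The summed level of the 54 genes was 1668 ± 214 CPM in CAF with siHsp90aa1, 2653 ± 324 CPM in CAF with siHsp90ab1 and 3136 ± 489 CPM in CAF with control siRNA (SD, n = 3 libraries in each group, as below). In NF with TGFb1 it was 2999 ± 291 CPM with siHsp90aa1, 3253 ± 135 CPM with siHsp90ab1 and 3861 ± 260 CPM with control siRNA, and in NF with vehicle it was 4970 ± 124 CPM. CAF control replicate 3, at 2571 CPM, was apart from replicates 1 and 2, at 3426 and 3410 CPM. NF with vehicle had the highest mean of the 7 groups for 49 of the 54 genes, and CAF with siHsp90aa1 the lowest for 51. On the length-scaled unit transcripts-per-million (TPM), Pcna, the sliding clamp, had the highest level of the 54 in every group, with means from 93.5 TPM in CAF with siHsp90aa1 to 417 TPM in NF with vehicle. E2f2, an activating E2F factor, had the lowest in every group, with means from 1.25 to 6.14 TPM in the same groups.

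**Figure D1:**
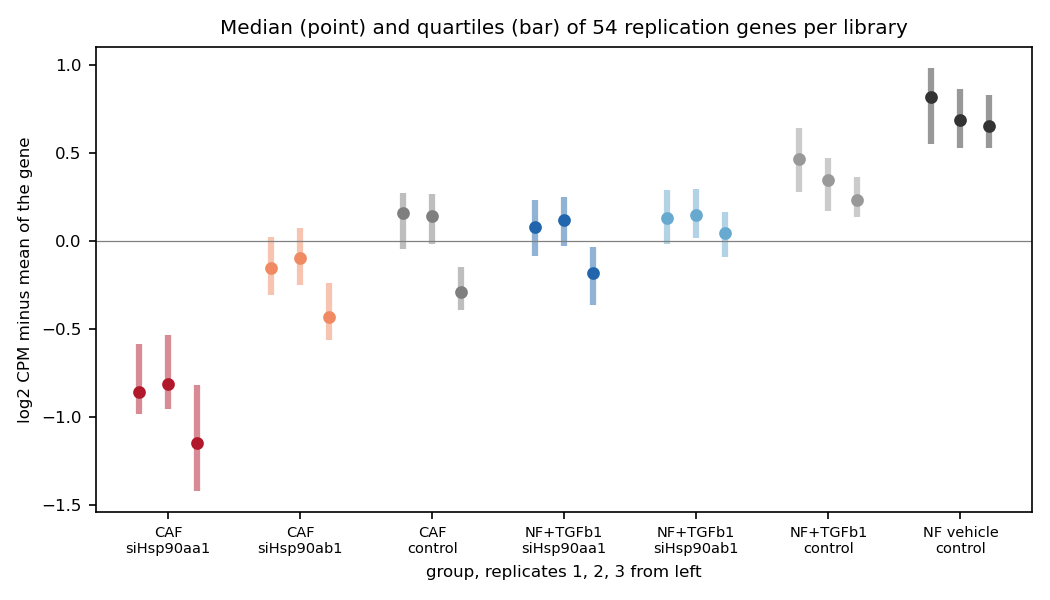
Median (point) and quartiles (bar) over the 54 replication genes of log2 CPM minus the mean of each gene over the 21 libraries, by group, with replicates 1, 2 and 3 from left. CAF with siHsp90aa1 lies lowest (medians -1.15 to -0.81), NF with vehicle highest (0.65 to 0.82), and CAF control replicate 3 (-0.29) lies below its other two replicates (0.14 and 0.16).

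**Figure D2:**
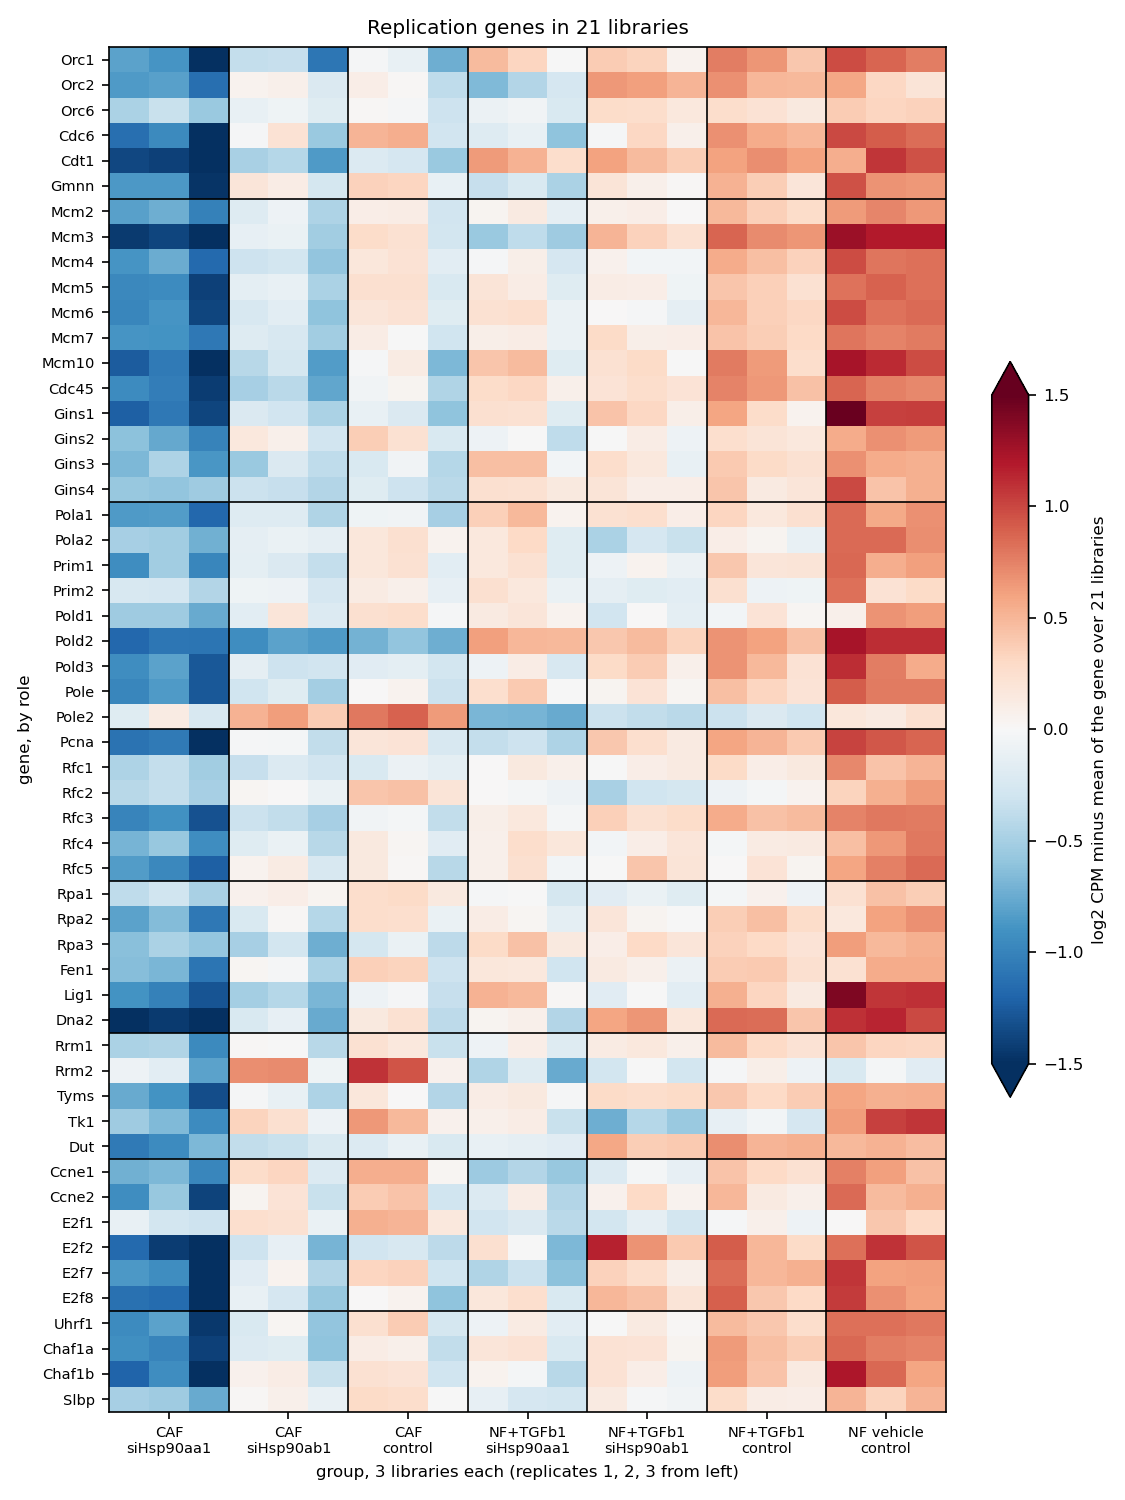
Log2 CPM of each of the 54 genes minus its mean over the 21 libraries, one row per gene in role order (black lines divide the 8 roles) and one column per library. Red is above and blue below the gene's mean; the 3 columns of CAF with siHsp90aa1 are blue in nearly all rows and the 3 columns of NF with vehicle red in nearly all.

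In CAF, siHsp90aa1 lowered the replication genes of every role. Of the 54 genes, 51 fell and 0 rose in the comparison of siHsp90aa1 with control siRNA (edgeR quasi-likelihood test, Benjamini-Hochberg adjusted p under 0.05 over all tested genes). Over all tested genes 12.9% were called lower and 12.5% higher. The median log2 fold change of the 54 was -0.92, a level of 52.9% of control, beside 0.03 over all tested genes. The libraries of the groups did not overlap for 54 of 54 genes, against 19.5% of all tested genes that were lower without overlap. Within each replicate number, 54 of 54 genes were lower with siHsp90aa1, with medians of -0.97, -0.90 and -0.88.

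Origin licensing genes fell in 6 of 6 cases. Cdt1, which loads the helicase, had 26.3, 25.7 and 18.8 CPM with siHsp90aa1, against 59.1, 57.3 and 46.2 CPM with control siRNA, a log2 fold change of -1.20 ± 0.15 (adjusted p = 4.12e-05). Its partner Cdc6 fell by 1.65 ± 0.27 on the log2 scale, with 9.38, 10.6 and 4.32 CPM against 29.4, 30.1 and 16.8 CPM, so replicate 3 was low in both groups and the groups stayed apart. Gmnn, which encodes geminin, the inhibitor of Cdt1, fell alongside by 1.24 ± 0.17. Orc6, a subunit of the origin recognition complex, had the smallest fall of this role at -0.35 ± 0.08.

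Among the 12 helicase genes, 11 fell. Mcm3 had 40.6, 42.1 and 24.0 CPM with siHsp90aa1, against 132, 129 and 90.5 CPM with control siRNA, and at 30.4% of control it had the second largest fall of the 54 (log2 fold change -1.72 ± 0.18, adjusted p = 6.46e-06). Its sister subunits were closer to the median of all 54, with -0.83 ± 0.11 for Mcm2, -1.003 ± 0.12 for Mcm4, -1.19 ± 0.14 for Mcm5, -1.15 ± 0.14 for Mcm6 and -0.89 ± 0.10 for Mcm7. The GINS genes differed more among themselves, with log2 fold changes of -0.92 ± 0.17 for Gins1 and -0.93 ± 0.14 for Gins2, -0.43 ± 0.15 for Gins3 and -0.27 ± 0.11 for Gins4. Gins4 had 25.6, 25.4 and 26.4 CPM with siHsp90aa1, against 33.7, 30.8 and 28.8 CPM with control siRNA, the smallest difference of the 54, and missed the threshold (adjusted p = 0.0869). Gins4 passed in the fit with replicate number as a block (adjusted p = 0.0295). Prim2 (adjusted p = 0.0798, 0.0143 with the block) and Rpa3 (adjusted p = 0.0524, 0.0144 with the block) were the other 2 genes that missed it, so with the block 54 of 54 fell, beside 16.4% of all tested genes.

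Of the 9 polymerase and primase genes, 8 fell, with Pole2, a subunit of the leading-strand polymerase epsilon, at 8.26, 10.2 and 7.93 CPM against 16.3, 17.3 and 14.5 CPM (-0.87 ± 0.10, adjusted p = 1.71e-05). All 6 clamp and loader genes fell. Pcna had 76.9, 79.8 and 57.4 CPM with siHsp90aa1, against 189, 191 and 140.2 CPM with control siRNA (-1.28 ± 0.13, adjusted p = 6.16e-06), and the loader subunits ranged from -0.29 ± 0.08 for Rfc1 to -0.93 ± 0.15 for Rfc5. Of the 6 genes for single-strand binding and the lagging strand, 5 fell. Dna2, a nuclease and helicase that trims long flaps, had the largest fall of the 54, with 4.52, 5.71 and 3.61 CPM against 17.1, 18.02 and 11.7 CPM (-1.76 ± 0.22, adjusted p = 2.84e-05).

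All 5 nucleotide supply genes fell. Dut, which removes dUTP, had 30.1, 32.5 and 39.2 CPM with siHsp90aa1, against 54.5, 58.1 and 53.6 CPM with control siRNA (-0.71 ± 0.09, adjusted p = 2.91e-05), and here replicate 3 was not the low one. Tk1, the thymidine salvage kinase, fell by 1.12 ± 0.17 on the log2 scale, and Rrm2, the small subunit of ribonucleotide reductase, by 1.07 ± 0.24. All 6 cyclin E and E2F genes fell, both the activators E2f1 (-0.64 ± 0.12) and E2f2 (-1.09 ± 0.24) and the repressors E2f7 (-1.22 ± 0.19) and E2f8 (-1.10 ± 0.20). Ccne1, the cyclin that activates CDK2 at the start of S phase, had 15.5, 16.0 and 12.9 CPM against 37.3, 37.0 and 26.1 CPM (-1.18 ± 0.14, adjusted p = 2.89e-05). The 4 chromatin genes fell too, among them Slbp, the stem-loop binding protein of histone mRNA, with 40.7, 39.8 and 34.2 CPM against 70.1, 69.4 and 57.3 CPM (-0.78 ± 0.09, adjusted p = 2.56e-05), and Uhrf1, which guides maintenance DNA methylation (-1.18 ± 0.17).

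The calls rested on single libraries in 2 genes. Gins3 missed the threshold when CAF control replicate 1 or 2 or siHsp90aa1 replicate 1 or 3 was left out (adjusted p 0.0766 to 0.150), and Orc1 when CAF control replicate 1 or 2 or siHsp90aa1 replicate 3 was (0.0555 to 0.0770). Other cell cycle genes moved with them, beside 12.9% of all tested genes lower and 12.5% higher, or 16.4% and 17.7% with the block. Of 56 other replication genes 41 fell (42 with the block) and 2 rose, with the fork protection gene Timeless at -1.05 ± 0.11, the clamp loader cofactor Dscc1 at -1.26 ± 0.14 and the polymerase epsilon subunit Pole4 at -1.13 ± 0.14, while the risers were Rb1 (0.87) and Pold4 (0.37), named after their values were seen. Of 24 mitosis genes 22 fell (24 with the block) and 0 rose, with a median of -0.76. A further list of 13 genes held G1 cyclins, their kinases, their inhibitors and Myc, and its genes are also named after their values were seen. Of these, Ccnd1 (-1.40), Cdk6 (-0.81) and Cdk4 (-0.47) fell and Cdkn1a (0.81), Cdkn2b (0.67) and Ccnd2 (0.31) rose. The summed fibroblast markers, mostly Col1a1, Col1a2 and Fn1, were 65749 to 72183 CPM with siHsp90aa1 and 46439 to 56333 CPM with control siRNA. Their part in these falls was not tested.

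**Figure D3:**
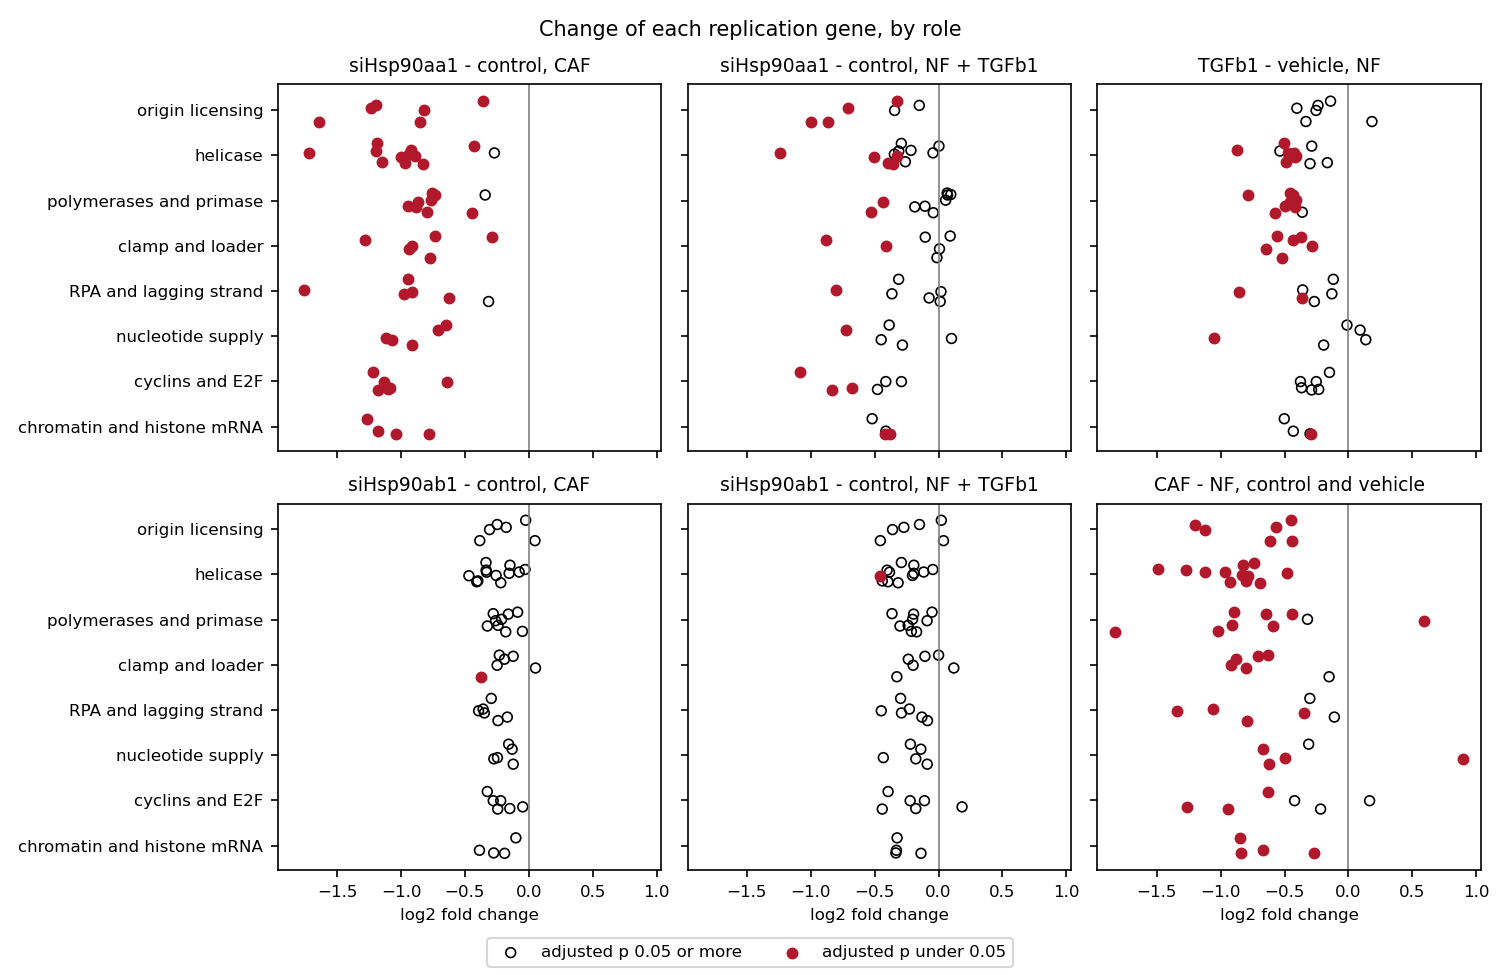
Log2 fold change of each of the 54 genes (points), by role, in 6 comparisons; filled red points passed an adjusted p of 0.05 and open points did not. With siHsp90aa1 in CAF all 54 points lie left of 0 and 51 are filled, against 20 filled in NF with TGFb1, while with siHsp90ab1 1 point is filled in each line.

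In NF with TGFb1, siHsp90aa1 lowered fewer genes than in CAF. Of the 54 genes 20 fell and 0 rose, beside 13.5% of all tested genes called lower and 14.8% higher, and with the replicate block 34 fell, beside 18% of all tested genes. The median log2 fold change was -0.34, or 79.2% of control, beside 0.01 over all tested genes. The libraries lay apart and lower for 32 genes, against 22.5% of all tested genes. All 20 genes had also fallen in CAF, which is 100% of these 20 and 39.2% of the 51. With 51 of the 54 lower in CAF, nearly all of any 20 would be shared, so the overlap adds little. The comparisons share no library.

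The roles differed in how many genes passed. Origin licensing had 4 of 6 (5 with the block), the helicase 5 of 12 (9), cyclin E and E2F 3 of 6 (6) and the chromatin genes 2 of 4 (4). Polymerases and primase had 2 of 9, and the clamp and its loader 2 of 6, with or without the block. The median log2 fold changes of these roles were near 0, at -0.04 and -0.06, or 97.2% and 96.0% of control. Single-strand binding and lagging strand genes had 1 of 6 (2 with the block) and nucleotide supply 1 of 5 (4). Over all tested genes 13.5% were called lower (18% with the block). Mcm3 had the largest fall of the 54, with 74.8, 84.1 and 75.5 CPM with siHsp90aa1, against 201, 179 and 173 CPM with control siRNA (-1.24 ± 0.18, adjusted p = 7.69e-05). Orc2, a core subunit of the origin recognition complex, had 27.1, 31.7 and 36.0 CPM against 68.7, 60.4 and 59.9 CPM (-0.998 ± 0.14, adjusted p = 5.88e-05), a level of 50.1% of control, beside 55.4% in CAF. Pcna had 130, 134 and 121 CPM against 250.8, 237 and 219 CPM (-0.88 ± 0.13, adjusted p = 0.000113). For all of these the libraries with siHsp90aa1 lay below every control library.

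Dut had 57.7, 57.2 and 55.5 CPM with siHsp90aa1, against 101.7, 88.9 and 90.9 CPM with control siRNA (-0.72 ± 0.09, adjusted p = 1.79e-05), close to its change in CAF. E2f7 fell by 1.09 ± 0.19 and Ccne1 by 0.84 ± 0.14 on the log2 scale, Ccne1 with 17.5, 18.8 and 17.2 CPM against 34.4, 31.3 and 29.9 CPM. Dna2 had 15.8, 16.3 and 11.4 CPM against 27.9, 27.5 and 20.6 CPM (-0.81 ± 0.20, adjusted p = 0.00668). Smaller falls were those of Pole2 (5.83, 5.77 and 5.54 CPM against 7.51, 8.09 and 7.61 CPM, -0.44 ± 0.10) and Slbp (52.9, 48.5 and 47.5 CPM against 69.8, 62.4 and 61.6 CPM, -0.38 ± 0.09). At the other end Tk1 had 42.9, 43.6 and 32.2 CPM against 37.3, 39.4 and 34.1 CPM (0.10 ± 0.16, adjusted p = 0.692), and the groups overlapped.

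The count fell to 13 when NF TGFb1 control replicate 1 was left out. Then Cdc45, Cdc6, Chaf1a, E2f2, Mcm2, Mcm7 and Pold3 missed the threshold, with Pold3 at an adjusted p of 0.0658, and all of these but Pold3 were also lost without at least 1 other library (adjusted p 0.0542 to 0.187). With the block, Ccne2, E2f1, E2f8, Gins2, Mcm5, Mcm6, Mcm10, Orc1, Rpa2, Rrm1, Rrm2, Tyms, Uhrf1 and Chaf1b passed in addition, with log2 fold changes from -0.26 for Mcm6 to -0.52 for Chaf1b. Of the 56 other replication genes 19 fell (27 with the block) and 4 rose, beside 13.5% of all tested genes lower and 14.8% higher. Pole4 fell by 1.05 ± 0.14 on the log2 scale and Cdc25a, a phosphatase that activates CDK2, by 0.82 ± 0.15, and Samhd1, which degrades dNTPs, rose by 0.86 ± 0.10. The other risers were Rb1 (0.52), Rbl2 (0.48) and Pold4 (0.31), named after their values were seen. Of the 24 mitosis genes 3 fell, beside 13.5% of all tested genes, and 9 fell with the block, beside 18%. The 3 were Birc5 (-1.05), Mybl2 (-0.64) and Bub1b (-0.27), also named afterwards.

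The effect of siHsp90aa1 was larger in CAF than in NF with TGFb1 for a group of genes. The difference of the effects, CAF minus NF, passed for 17 of 54 genes, all with the lower value in CAF, beside 3.02% of all tested genes lower and 2.44% higher. With the replicate block 36 passed, beside 6.84% of all tested genes lower. The median difference over the 54 was -0.58, beside 0.01 over all tested genes. It was not particular to these genes. The 24 mitosis genes had a median of -0.59, with 6 lower (22 with the block) and 0 higher. The 56 other replication genes had a median of -0.36, with 10 lower (26 with the block) and 0 higher. NF had TGFb1 in both groups and CAF had vehicle in both, so the line and TGFb1 cannot be told apart in this difference. The 17 genes include 6 of 9 polymerase and primase genes, 4 of 6 clamp and loader genes, 3 of 12 helicase genes, Lig1 and Rpa1, Tk1 and Cdt1, and none of the cyclin E and E2F or chromatin genes. With the block 2 of 6 cyclin E and E2F genes and 4 of 4 chromatin genes passed as well.

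Tk1 had the largest difference, with an effect of -1.12 ± 0.17 in CAF and 0.10 ± 0.16 in NF (difference -1.22 ± 0.23, adjusted p = 0.00543). In CAF it had 27.97, 25.7 and 20.98 CPM with siHsp90aa1, against 63.5, 56.6 and 42.4 CPM with control siRNA. Lig1, the ligase that joins Okazaki fragments, had 34.0, 31.3 and 25.8 CPM against 60.0, 62.4 and 49.6 CPM in CAF, and 90.7, 88.9 and 63.8 CPM against 91.6, 79.4 and 69.4 CPM in NF (difference -0.93 ± 0.20, adjusted p = 0.0118). Rfc2, a clamp loader subunit, had 28.3, 29.6 and 26.8 CPM against 50.5, 51.3 and 43.2 CPM in CAF, and 38.1, 37.0 and 35.9 CPM against 35.8, 37.0 and 39.2 CPM in NF (difference -0.76 ± 0.12, adjusted p = 0.00174). In CAF the groups lay apart for Tk1, Lig1 and Rfc2, and in NF they overlapped.

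Cdt1 had 105.8, 97.7 and 81.8 CPM with siHsp90aa1 in NF, against 103, 110.5 and 103 CPM with control siRNA (-0.15 ± 0.15, adjusted p = 0.493), beside its fall of 1.20 in CAF (difference -1.05 ± 0.21, adjusted p = 0.00906). The catalytic subunits Pola1, Pold1 and Pole differed by -0.82 ± 0.18, -0.82 ± 0.20 and -0.84 ± 0.18, and Pola2, the regulatory subunit of polymerase alpha, by -0.83 ± 0.15. Orc2, Dut and Orc6 had effects of like size in both lines, with differences of 0.15 ± 0.19, 0.02 ± 0.12 and -0.03 ± 0.12. The count of 17 was 12 without NF siHsp90aa1 replicate 1 and 31 without CAF control replicate 3, the low library. Mcm7, Pold1, Pold2, Prim1 and Rfc3 lost the call without several single libraries (adjusted p 0.0504 to 0.118).

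**Figure D4:**
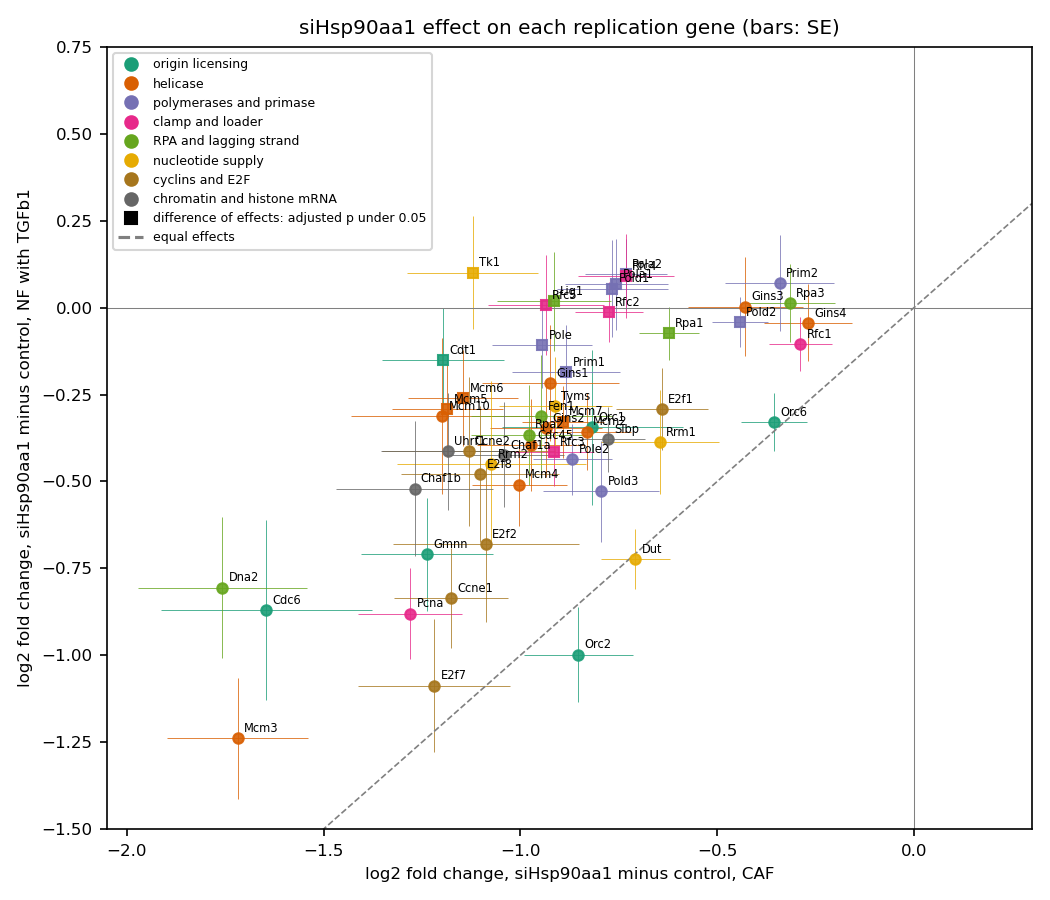
Log2 fold change with siHsp90aa1 in CAF (x axis) and in NF with TGFb1 (y axis) for each of the 54 genes, with bars of 1 SE and colours for the roles; squares mark the 17 genes whose effects differed (adjusted p under 0.05) and the dashed line equal effects. Tk1, Lig1, Pola2 and Rfc5 lie near 0 on the y axis and below -0.7 on the x axis, while Dut, Orc2 and Orc6 lie near the dashed line.

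siHsp90ab1 moved few of the genes past the threshold. In CAF 1 of 54 fell and 0 rose, beside 0.433% of all tested genes lower and 0.466% higher, and with the replicate block 7 fell, beside 1.08% of all tested genes lower and 1.29% higher. In NF with TGFb1 1 fell and 0 rose, beside 1.62% lower and 1.06% higher, and with the block 12 fell, beside 3.27% lower and 2.65% higher. The medians were -0.24 in CAF and -0.22 in NF, or 84.6% and 86.0% of control, beside -0.00 and -0.01 over all tested genes. The fold change was below 0 for 52 of the 54 genes in CAF and for 50 in NF. Libraries lay apart and lower for 8 genes in CAF and 29 in NF, against 7.73% and 11.1% of all tested genes, and apart and higher for 0 in either line, against 7.6% and 10.5%.

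In CAF the gene that passed was Rfc2, with 38.5, 37.9 and 35.2 CPM with siHsp90ab1, against 50.5, 51.3 and 43.2 CPM with control siRNA (-0.38 ± 0.09, adjusted p = 0.0446). The call was lost without any of 5 of the 6 libraries, all but CAF control replicate 3 (adjusted p 0.102 to 0.262), and with RLE factors, without the filter and in a fit of the CAF control and siHsp90ab1 groups alone. Mcm4 had the largest difference in CAF, with 101.5, 104 and 83.2 CPM against 141, 146 and 112.5 CPM, and missed the threshold (-0.47 ± 0.12, adjusted p = 0.0809, 0.00364 with the block). In NF the gene that passed was Mcm4, with 131, 122 and 123 CPM against 185, 172 and 159.9 CPM (-0.46 ± 0.12, adjusted p = 0.0479), and this call was lost without any single library of the 6 (adjusted p 0.0616 to 0.212), with RLE factors and without the filter. The libraries with siHsp90ab1 lay below every control library for Mcm4 in both lines.

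With the block, Mcm4, Mcm5, Mcm6, Cdc45, Lig1 and Rfc2 passed in both lines, Dna2 in CAF, and Mcm2, Mcm10, Ccne1, Pola2, Chaf1a and Chaf1b in NF. Lig1 had 44.5, 46.9 and 39.5 CPM against 60.0, 62.4 and 49.6 CPM in CAF (-0.39 ± 0.14, adjusted p = 0.329, 0.0374 with the block). In NF, Lig1 had 56.2, 63.2 and 56.8 CPM against 91.6, 79.4 and 69.4 CPM (-0.45 ± 0.14, adjusted p = 0.119, 0.00865 with the block). Ccne1 in NF had 22.1, 24.9 and 23.5 CPM against 34.4, 31.3 and 29.9 CPM (-0.44 ± 0.14, adjusted p = 0.124, 0.0165 with the block). Chaf1a in NF had 97.8, 96.4 and 86.5 CPM against 131, 115 and 108 CPM (-0.33 ± 0.15, adjusted p = 0.358, 0.0255 with the block).

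Other genes with the smallest p of their role did not pass without the block. In NF, Rfc2 had 26.9, 30.8 and 31.5 CPM with siHsp90ab1, against 35.8, 37.0 and 39.2 CPM with control siRNA (-0.33 ± 0.09, adjusted p = 0.0516, 0.0313 with the block). Pola2 had 32.2, 37.5 and 35.3 CPM against 47.7, 46.1 and 41.3 CPM in NF (-0.36 ± 0.10, adjusted p = 0.0685, 0.0101 with the block). Cdc6 in NF had 20.3, 25.5 and 21.6 CPM against 33.1, 30.4 and 29.1 CPM (-0.46 ± 0.26), and Tk1 had 24.3, 30.2 and 27.6 CPM against 37.3, 39.4 and 34.1 CPM (-0.43 ± 0.16). Their libraries lay apart in NF, and Cdc6 and Tk1 missed the threshold with the block too. E2f2 had the most positive value in NF, with 17.2, 12.3 and 10.2 CPM against 14.5, 10.97 and 9.50 CPM (0.18 ± 0.22, adjusted p = 0.831), and the groups overlapped.

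In CAF, Pola2 had 40.7, 41.8 and 40.6 CPM with siHsp90ab1, against 50.2, 52.7 and 46.5 CPM with control siRNA, and lay apart (-0.28 ± 0.10, adjusted p = 0.337). Cdt1 had 48.5, 50.7 and 37.8 CPM against 59.1, 57.3 and 46.2 CPM (-0.25 ± 0.15), and Tk1 had 50.96, 47.9 and 38.3 CPM against 63.5, 56.6 and 42.4 CPM (-0.25 ± 0.16). E2f1 had 48.99, 48.2 and 38.3 CPM against 59.7, 58.5 and 46.1 CPM (-0.28 ± 0.12). For Cdt1, Tk1 and E2f1 the CAF groups overlapped, and replicate 3 was the lowest library of both groups. Uhrf1 had 95.6, 115 and 74.7 CPM against 133, 146 and 93.2 CPM (-0.39 ± 0.17, adjusted p = 0.498), and Rfc5, with the most positive value in CAF, had 35.9, 37.4 and 29.2 CPM against 37.98, 34.998 and 25.8 CPM (0.05 ± 0.14), and both overlapped.

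The difference of the siHsp90ab1 effects, CAF minus NF, passed for 0 of 54 genes with or without the block and in DESeq2, with a median of -0.01. Over all tested genes 0% were called lower and 0.00657% higher, or 0% and 0.0197% with the block. Hsp90aa1 itself was at 420.5 ± 84.4 CPM with siHsp90ab1 and 883 ± 140 CPM with control siRNA in CAF, and at 292 ± 37.3 and 607 ± 63.9 CPM in NF, with log2 fold changes of -1.07 ± 0.30 and -1.05 ± 0.30 that did not pass (adjusted p = 0.123 in CAF and 0.0722 in NF), and its part in these values was not tested. Of the 56 other replication genes Samhd1 (-0.61 ± 0.10), Timeless (-0.48 ± 0.11), Tonsl (-0.28 ± 0.05) and Topbp1 (-0.50, named after its value was seen) fell and Rb1 (0.45, likewise) rose in NF. Over all tested genes 1.62% were lower and 1.06% higher there. With the block 8 were lower and 1 higher in NF, beside 3.27% and 2.65% of all tested genes. In CAF 0 of 56 passed in edgeR, beside 0.433% lower and 0.466% higher, and 5 fell with the block, beside 1.08%.

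The siRNA pools were also set directly against each other. In CAF with siHsp90aa1, 48 of the 54 genes were lower than with siHsp90ab1 and 0 higher, beside 13.3% of all tested genes lower and 13.1% higher, with a median of -0.67. The libraries lay apart for 50 genes, all lower, against 20.2% of all tested genes lower and 22.8% higher. Pcna was lower by 1.09 ± 0.13 and Mcm3 by 1.39 ± 0.18 on the log2 scale. Dna2 had the largest difference at -1.40 ± 0.22. Of the 48, E2f1, Fen1, Lig1, Mcm10, Pold1, Pold2, Rrm1 and Rrm2 missed the threshold when siHsp90ab1 replicate 2 was left out (adjusted p up to 0.115), which left 40.

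In NF with TGFb1 genes passed in both directions, in shares not far above or below those of all tested genes. With siHsp90aa1, 11 of the 54 were lower than with siHsp90ab1 and 4 were higher. Over all tested genes 16.4% were lower and 17.7% higher. The share lower was thus somewhat above that of all tested genes and the share higher was below it. These differences in share were not tested. The median was -0.08, beside 0.01 over all tested genes. With the replicate block 15 were lower and 5 higher, beside 20.3% and 21.8% of all tested genes, and libraries lay apart for 15 lower and 7 higher genes, against 25.3% and 27.1%. Orc2 was lower by 1.04 ± 0.14, Mcm3 and E2f2 by 0.86 ± 0.17 and 0.86 ± 0.23, Pcna by 0.64 ± 0.13 and Dut by 0.58 ± 0.09 on the log2 scale. Those higher were Tk1 (0.53 ± 0.16), Lig1 (0.47 ± 0.14), Pola2 (0.46 ± 0.10) and Rfc2 (0.31 ± 0.09). Pola2 had 49.8, 55.1 and 39.5 CPM with siHsp90aa1, against 32.2, 37.5 and 35.3 CPM with siHsp90ab1, and the libraries lay apart. Leaving out siHsp90ab1 replicate 1 left 8 of the 15, and Ccne1, Dna2, E2f2, Gmnn, Lig1, Rfc2 and Tk1 then missed the threshold (adjusted p up to 0.146 over all libraries left out in turn).

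TGFb1 lowered genes of the helicase, the polymerases and the clamp in NF with control siRNA. Of the 54 genes 26 fell and 0 rose with TGFb1 relative to vehicle, beside 14.4% of all tested genes lower and 14.6% higher, with a median of -0.37, or 77.1% of vehicle, beside -0.03 over all tested genes. With the replicate block 37 fell, beside 18.6% of all tested genes, and the libraries lay apart and lower for 36, against 19.9%. The clamp and its loader fell in 6 of 6 cases, polymerases and primase in 8 of 9 and the helicase in 8 of 12. Origin licensing passed in 0 of 6 cases (1 with the replicate block), cyclin E and E2F genes in 0 of 6 (1), nucleotide supply in 1 of 5 (1), single-strand binding and lagging strand genes in 2 of 6 (4) and chromatin genes in 1 of 4 (4). The comparisons of TGFb1 with vehicle and of siHsp90aa1 with control in NF share the TGFb1 control libraries, so their role counts are not independent.

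Tk1 had the largest fall, with 37.3, 39.4 and 34.1 CPM with TGFb1, against 62.4, 82.2 and 84.9 CPM with vehicle (-1.05 ± 0.16, adjusted p = 0.0001). Gins1, a GINS subunit, had 16.5, 13.3 and 11.4 CPM against 30.6, 22.4 and 22.6 CPM (-0.88 ± 0.17, adjusted p = 0.000625), and Lig1 had 91.6, 79.4 and 69.4 CPM against 168, 134 and 135 CPM (-0.86 ± 0.14, adjusted p = 0.000188). Pola2 fell by 0.79 ± 0.10 on the log2 scale. Pold2, a small subunit of the lagging-strand polymerase delta, had 89.9, 85.0 and 76.1 CPM against 132, 121 and 121 CPM (-0.58 ± 0.07, adjusted p = 8.01e-06). For these genes the TGFb1 and vehicle libraries did not overlap.

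Rfc2 had 35.8, 37.0 and 39.2 CPM with TGFb1, against 47.8, 54.6 and 58.7 CPM with vehicle (-0.52 ± 0.09, adjusted p = 0.00017), and Slbp 69.8, 62.4 and 61.6 CPM against 82.3, 72.8 and 82.0 CPM (-0.29 ± 0.09, adjusted p = 0.0247). Among the genes that did not pass, E2f1 had 40.5, 43.4 and 39.0 CPM against 41.4, 54.6 and 50.6 CPM (-0.25 ± 0.12, adjusted p = 0.122), and the groups overlapped. Gmnn had 18.8, 16.9 and 14.9 CPM against 25.5, 20.96 and 20.6 CPM (-0.40 ± 0.16, adjusted p = 0.0683, 0.00307 with the block). Orc2, at 68.7, 60.4 and 59.9 CPM against 64.3, 53.2 and 48.9 CPM, had the most positive value of the 54 and overlapped (0.18 ± 0.14, adjusted p = 0.341), and Rrm2 and Dut were at 0.14 ± 0.24 and 0.09 ± 0.09.

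The count was 17 without NF TGFb1 control replicate 3. In all, 10 of the 26 genes missed the threshold when at least 1 library was left out, among them Mcm3, which missed it without any of the 6 (adjusted p 0.0520 to 0.132), and Rfc3, Gins2, Pold1 and Slbp without 4 or more (0.0512 to 0.131). Prim1 and Prim2 missed it without 3 libraries each (0.0812 to 0.174), Pcna (0.0674) and Mcm4 (0.0556) without NF TGFb1 control replicate 3, and Pola1 (0.0525) without NF vehicle replicate 1, which had the high mitochondrial share. Of the 56 other replication genes 17 fell (32 with the block) and 2 rose, beside 14.4% of all tested genes lower and 14.6% higher. Dscc1 was at -1.13 ± 0.14, Samhd1 at -0.84 ± 0.10 and the origin-firing kinase gene Cdc7 at -0.81 ± 0.14. The risers were Pold4 (0.59) and E2f3 (0.29), named after their values were seen. Of the 24 mitosis genes 3 fell, beside 14.4% of all tested genes, and 11 fell with the block, beside 18.6%. The 3 were Ube2c (-0.38), Ccnb2 (-0.37) and Bub1 (-0.34), likewise named. The summed fibroblast markers, mostly Col1a1, Col1a2 and Fn1, were 22167 to 28730 CPM with TGFb1 and 10390 to 13031 CPM with vehicle. Pdgfra (263 against 764 CPM), Dcn (129 against 397 CPM) and the nearly absent Thy1 and Lum were lower with TGFb1 in the group means. The part of these markers in the falls was not tested.

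CAF had lower levels of most of the genes than NF, both with control siRNA and vehicle. Of the 54 genes 44 were lower in CAF and 2 higher, beside 30% of all tested genes lower and 31.6% higher, with a median of -0.70, or 61.5% of NF, beside -0.00 over all tested genes. The libraries lay apart for 44 genes lower in CAF, against 29.8% of all tested genes. Origin licensing was lower in 6 of 6 cases, the helicase in 12 of 12, the clamp and its loader in 5 of 6 and the chromatin genes in 4 of 4. Polymerases and primase were lower in 7 of 9 with 1 higher, and nucleotide supply in 3 of 5 with 1 higher. Single-strand binding and lagging strand genes were lower in 4 of 6 and cyclin E and E2F genes in 3 of 6.

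Pold2 differed most, with 34.3, 37.2 and 33.9 CPM in CAF, against 132, 121 and 121 CPM in NF, or 28.2% (-1.83 ± 0.07, adjusted p = 4.78e-13). Gins1 had 10.2, 9.43 and 7.24 CPM in CAF, against 30.6, 22.4 and 22.6 CPM in NF (-1.49 ± 0.17, adjusted p = 5.09e-07), and Lig1 had 60.0, 62.4 and 49.6 CPM against 168, 134 and 135 CPM (-1.34 ± 0.15, adjusted p = 2.67e-07). Cdt1 had 59.1, 57.3 and 46.2 CPM against 99.1, 143 and 132 CPM (-1.20 ± 0.15, adjusted p = 2.05e-06). In all of these the CAF libraries lay below every NF library.

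E2f2 had 6.33, 6.54 and 5.88 CPM in CAF, against 13.8, 16.4 and 14.95 CPM in NF (-1.27 ± 0.23, adjusted p = 9.71e-05). E2f1, another activator, and Ccne1 missed the threshold, at 0.17 ± 0.12 and -0.22 ± 0.14. Rfc3 had 28.8, 29.3 and 23.2 CPM against 50.1, 51.9 and 51.3 CPM (-0.92 ± 0.10, adjusted p = 2.86e-07), while its fellow loader subunit Rfc2 was at -0.15 ± 0.09 and missed it. Dut had 54.5, 58.1 and 53.6 CPM against 87.7, 90.04 and 86.4 CPM (-0.67 ± 0.09, adjusted p = 2.63e-06), and Chaf1a, the large subunit of the histone chaperone CAF-1 (a protein complex, not the cell line), 90.5, 88.5 and 64.9 CPM against 152, 143 and 141 CPM (-0.84 ± 0.15, adjusted p = 0.000112).

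The 2 genes that were higher in CAF were Rrm2 and Pole2. Rrm2 had 192, 175 and 94.99 CPM in CAF, against 77.8, 88.8 and 80.9 CPM in NF (0.90 ± 0.24, adjusted p = 0.00318). CAF control replicate 3 was far below the other CAF libraries for Rrm2 but still above the NF libraries. Pole2 had 16.3, 17.3 and 14.5 CPM in CAF, against 10.5, 10.3 and 11.04 CPM in NF (0.59 ± 0.10, adjusted p = 4.58e-05). The partner genes of their complexes were not higher, with Rrm1 at -0.31 ± 0.15 (adjusted p = 0.0782, 0.00777 with the block) and Pole at -0.91 ± 0.13 (adjusted p = 5.66e-06).

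Without CAF control replicate 3 the count was 42 in all, and Cdc6, Rpa2, Slbp and Tk1 missed the threshold (adjusted p up to 0.190 over all libraries left out in turn). Without NF vehicle replicate 1, Cdc6, E2f7, Orc2, Prim2 and Slbp missed it, and without NF vehicle replicate 2 or 3 Cdc6 and Rpa2. Of the 56 other replication genes 39 were lower and 6 higher in CAF, beside 30% of all tested genes lower and 31.6% higher. Samhd1 was at -1.64 ± 0.10, Dscc1 at -1.44 ± 0.14 and Pold4, the smallest subunit of polymerase delta, at 2.22 ± 0.11. The 24 mitosis genes had a median of -0.25. Of these, 9 were lower, beside 30% of all tested genes, and 1 higher, beside 31.6%. The higher gene was Kif20a (0.48, named after its value was seen). With the block 14 were lower and 3 higher, beside 32.5% and 33.8% of all tested genes. The summed fibroblast markers, mostly Col1a1, Col1a2 and Fn1, were 46439 to 56333 CPM in CAF and 10390 to 13031 CPM in NF. Dcn alone of that list was lower in CAF, with group means of 16.7 CPM in CAF and 397 CPM in NF. The summed epithelial markers, nearly all Krt19 in CAF, were 5.58 to 22.2 CPM in CAF and 0.400 to 0.579 CPM in NF, and their part in these differences was not tested.

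**Figure D5:**
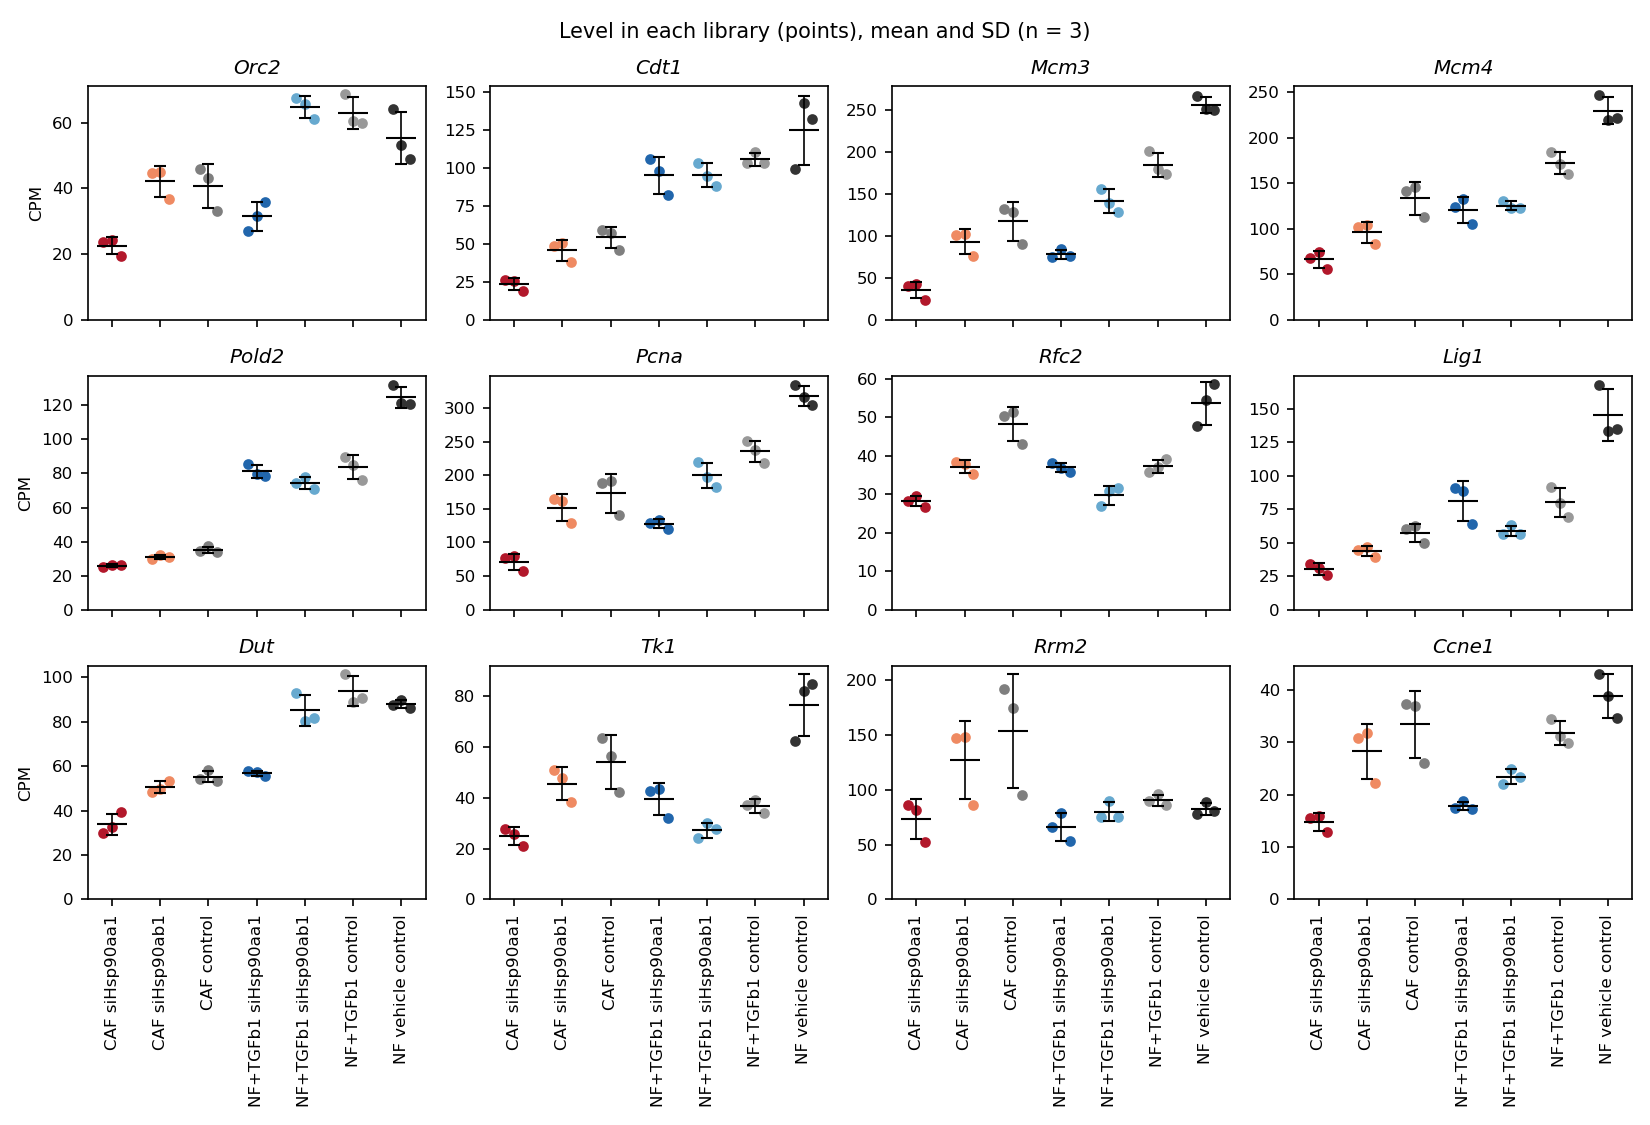
CPM of 12 of the 54 genes in each library (points), with the mean (dash) and SD (whiskers, n = 3), by group, each panel from 0. Mcm3 and Pcna are lowest with siHsp90aa1 in both lines, Tk1 and Lig1 are low with siHsp90aa1 in CAF but not in NF with TGFb1, and Rrm2 alone of the 12 is higher in CAF control than in NF vehicle.

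The 45 genes with a promoter window were also described by whether they held an E2F string. With siHsp90aa1 in CAF the 17 genes with a match had a median log2 fold change of -0.91, and the 28 without a match -0.90. In NF with TGFb1 the medians with siHsp90aa1 were -0.34 and -0.34. With TGFb1 they were -0.41 with a match and -0.30 without, and for CAF against NF -0.83 and -0.64. These medians are a description and were not tested. Of the genes with printed stretches, Cdc6 and Mcm3 were among the largest falls with siHsp90aa1 in CAF, and Gins3 (-0.43 ± 0.15) was among the smallest.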

How the data were processed

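RNA was measured in 21 libraries (7 groups of 3) from a stranded mRNA kit, per the labels' protocols. The authors deposited estimated counts per gene, and TPM values scaled by transcript length, with STAR, Salmon and GRCm38 named in the submitters' processing notes without versions. The deposited estimated counts were not normalised, 10.9% of them held fractions, and each was rounded to the nearest whole count here.

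The test was that of edgeR 4.0.16 under R 4.3.3, after TMM scaling and a filterByExpr filter (count 10 in a group's worth of libraries, total 15), 1 coefficient per group over all 21 libraries, a quasi-likelihood F test with a prior count of 0.125, and Benjamini-Hochberg adjustment over the 15230 tested genes of each of 10 comparisons. The threshold was an adjusted p of 0.05. The SE is the log2 fold change divided by the square root of F. CPM are TMM-normalised. The fit was tested on simulated data. Depth was 35087180 to 70421576 counts per library, so the spread between libraries limits the precision. Alternatives were no filter, RLE factors, DESeq2 1.42.0, a fit of the compared groups alone, the replicate block, and each library left out.

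The labels number the replicates as batches, so equal numbers pair libraries. Over 10374 genes with a mean of at least 5 CPM, deviations from group means of same-numbered libraries correlated at r over 0.1 in 53 of 63 pairs (mean 0.310). Libraries with different numbers averaged -0.151. The deviations within a group sum to 0, so this negative value follows from the positive one and is no separate evidence of pairing.

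The members, roles and lists were chosen with earlier results of these data known. Per-library values are given for the member with the smallest p of each role in each comparison with a control and for the extremes, with others added, and values of other replication genes for the 3 with the smallest p. Of the gene identifiers 98.8% matched GENCODE vM21.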

Additional observations from a re-analysis of the deposited data

Results flagged for a closer look

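The effect of siHsp90aa1 in CAF (with vehicle) differed from its effect in NF (with TGFb1) for 17 of the 54 genes, by a test of the difference itself in edgeR (adjusted p under 0.05). The log2 difference of the effects, CAF minus NF, was -1.22 for Tk1 and -1.05 for Cdt1. Among clamp loader subunits it was -0.94 for Rfc5, -0.82 for Rfc4, -0.76 for Rfc2 and -0.50 for Rfc3. Among polymerase and primase subunits it was -0.84 for Pole, -0.83 for Pola2, -0.82 for Pola1, -0.82 for Pold1, -0.70 for Prim1 and -0.40 for Pold2. It was -0.93 for Lig1 and -0.55 for Rpa1, and among helicase subunits -0.89 for Mcm5, -0.89 for Mcm6 and -0.56 for Mcm7. The line and TGFb1 cannot be told apart in these differences.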

How the results depend on the processing

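No gene called in the main fit or with the replicate block reversed under any alternative run. The median difference of the siHsp90ab1 effects, near 0, changed sign, from -0.128 to 0.086 with single libraries left out. In CAF with siHsp90aa1 the count of lowered genes was 49 to 53 with single libraries left out. In the other comparisons the count of genes past the threshold moved by more than 1.5 times as follows, and the cause was not tested. For siHsp90aa1 in NF it was 34 with the replicate block and 13 to 21 with single libraries left out, against 20. For TGFb1 it was 17 to 27 with single libraries left out, against 26, and for siHsp90aa1 against siHsp90ab1 in NF 8 to 12, against 15. For the difference of the siHsp90aa1 effects it was 28 in DESeq2, 36 with the block and 12 to 31 with single libraries left out, against 17. For siHsp90ab1 in CAF it was 2 in DESeq2, 0 with RLE factors, 0 without a filter, 0 in a fit of the compared groups, 7 with the block and 0 to 2 with single libraries left out, against 1. For siHsp90ab1 in NF it was 3 in DESeq2, 0 with RLE factors, 0 without a filter, 10 in a fit of the compared groups, 12 with the block and 0 with any single library left out, against 1. The replicate block ended 0 calls. Besides the counts above and those in the report, it added calls in CAF against NF (48 lower, against 44) and for siHsp90aa1 against siHsp90ab1 in CAF (49, against 48), and it changed no other call among the 54 genes. Groups of 3 libraries of 1 line each limit these results, and counting error is small at this depth.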
